A study of Rattus norvegicus with 9 samples.

Results

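The lymphotoxin and TWEAK receptor genes and the noncanonical NF-kB genes that act downstream of them were followed in rat gastrocnemius, a calf muscle served by the sciatic nerve. The list held 9 genes of 13752 gene IDs in the data. They were Ltb (lymphotoxin beta), Ltbr (its receptor), Ccl21 (a lymphoid chemokine), Tnfsf12 (the cytokine TWEAK), Tnfrsf12a (the TWEAK receptor, also called Fn14), Tnfrsf1a (the TNF receptor TNFR1), Map3k14 (the kinase NIK), Nfkb2 (p100/p52) and Relb. They were found by RefSeq symbol and NCBI gene ID, which was 361795 for Ltb, 297604 for Ltbr, 298006 for Ccl21, 360548 for Tnfsf12, 302965 for Tnfrsf12a, 25625 for Tnfrsf1a, 360640 for Map3k14 and 309452 for Nfkb2. A value was present for 8 of them, and all 8 passed the filter on low counts that left 10129 genes for testing. Relb had no line in any library and was not analysed here. Genes at 0 are not listed in the files, and whether the gene models used held Relb is not given in the sources used here.

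The genes were listed by function with earlier results of these data known. Ltb was chosen by its fitted fold change in DN against SHAM, where it was lower, and Ccl21 was chosen by that in DN-SM against DN, where it was lower. Their values in those comparisons are therefore given as a description without a test. Whether other members were listed with their values in view is not recorded, so their p-values are not independent of the choice of genes.

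Muscle came from male rats labelled 8 weeks old, in 3 groups of 3 libraries. SHAM animals had a sham operation, DN animals an injury of the sciatic nerve and no treatment, and in DN-SM the same injury was followed by daily electrical stimulation over the muscle for 4 weeks from surgery (25 V, 1 mA, 2 Hz, pulse width 300 ms). All animals were anaesthetised and fitted with surface electrodes, for 10 minutes without current in SHAM and DN. The strain, the kind of nerve injury and the age at collection are not given in the labels. The labels also do not state whether 1 library stands for 1 animal, so p-values measure the spread between these libraries, which may be technical. Totals of expected counts ran from 7926445 to 8893843 per library. The muscle label matched the data: the actin gene Acta1 alone took 9.63% to 13.12% of the counts.

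In the noncanonical pathway, a few receptors of the TNF receptor family, among them the lymphotoxin beta receptor, the TWEAK receptor and CD40, draw the adaptors TRAF2 and TRAF3 and the cIAP ligases away from the kinase NIK. NIK then accumulates and acts through IKK alpha, and p100, the product of Nfkb2, is trimmed to p52, which enters the nucleus with RelB. Lymphotoxin beta is anchored at the cell surface in complexes with lymphotoxin alpha, is known mainly from lymphocytes, and sustains lymphoid tissue, where CCL21 guides T cells and dendritic cells. In mouse skeletal muscle, TWEAK and its receptor are known for promoting loss of muscle mass after denervation. The TNF receptor TNFR1 feeds chiefly the canonical branch with RelA and p50.

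Promoter windows were available for 7 of the 9 genes, each spanning 250 bases before and 50 after the annotated start. The windows of Ltb, Nfkb2 and Ccl21 are shown because the first and the last are the genes singled out and Nfkb2 passed the test in DN against SHAM. Capitals mark matches to the kappa-B consensus, the DNA sequence bound by NF-kB dimers, searched on both strands; the strand named is that of the gene, and each window reads 5′ to 3′ on it.
Ltb (RefSeq, GRCr8, chr20:3634005-3634304, minus strand): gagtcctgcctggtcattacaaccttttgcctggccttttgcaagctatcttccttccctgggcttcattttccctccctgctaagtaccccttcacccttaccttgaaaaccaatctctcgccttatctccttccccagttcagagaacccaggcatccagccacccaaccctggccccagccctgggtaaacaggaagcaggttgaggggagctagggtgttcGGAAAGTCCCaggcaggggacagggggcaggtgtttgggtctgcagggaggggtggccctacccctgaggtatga
Nfkb2 (RefSeq, GRCr8, chr1:255108124-255108423, plus strand): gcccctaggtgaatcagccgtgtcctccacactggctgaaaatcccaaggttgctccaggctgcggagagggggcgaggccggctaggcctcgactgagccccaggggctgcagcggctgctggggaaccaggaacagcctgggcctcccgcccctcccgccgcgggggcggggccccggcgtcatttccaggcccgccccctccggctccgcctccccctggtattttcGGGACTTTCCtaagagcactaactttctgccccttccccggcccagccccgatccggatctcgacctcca
Ccl21 (RefSeq, GRCr8, chr5:61777466-61777765, minus strand): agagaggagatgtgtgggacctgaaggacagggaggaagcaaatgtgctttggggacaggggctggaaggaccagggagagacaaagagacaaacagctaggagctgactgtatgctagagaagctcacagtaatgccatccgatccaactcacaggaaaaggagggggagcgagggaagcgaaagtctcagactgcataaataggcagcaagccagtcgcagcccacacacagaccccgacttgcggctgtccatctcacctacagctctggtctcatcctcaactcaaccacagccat
The consensus was matched in 2 of the 7 windows, those of Ltb and Nfkb2, and in 7.51% of 33469 windows of this length over all genes. The Ltb match began at position 226 of the 300 bases and the Nfkb2 match at position 231. On opposite strands they held the same 10 letters, GGGACTTTCC, which occurred in 37 of the 33469 windows (0.111%). That exact string was searched after the matches were seen and overlaps the consensus. Of 2 other motifs searched on both strands, CACGTG (in 6.42% of all windows) was in the window of Ltbr and TGANTCA (7.33%) in that of Nfkb2. These matches describe sequence and say nothing of binding.

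The 8 genes ranged from about 1 to 39 FPKM (fragments scaled by transcript length and library depth, which allows levels to be compared between genes). In SHAM the order of mean levels was Tnfrsf12a at 26.1 ± 12.7 FPKM (SD, n = 3, as throughout), Ltbr at 24.1 ± 1.24, Tnfrsf1a at 20.6 ± 3.86, Ccl21 at 16.3 ± 5.44, Tnfsf12 at 15.4 ± 0.553, Nfkb2 at 9.95 ± 0.705, Ltb at 8.32 ± 1.71 and Map3k14 at 2.53 ± 0.106. Neighbours in that order overlapped between libraries except Tnfsf12 above Nfkb2 and Ltb above Map3k14. In DN the order was led by Ltbr at 29.5 ± 0.695 and closed by Map3k14 at 3.24 ± 0.86 and Ltb at 1.52 ± 0.342, so that Ltb lay below Map3k14 in every DN library. In DN-SM, Ltbr again led, at 24.9 ± 1.05, and Ltb at 2.49 ± 0.736 overlapped Map3k14 at 2.24 ± 0.706.

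**Figure D1:**
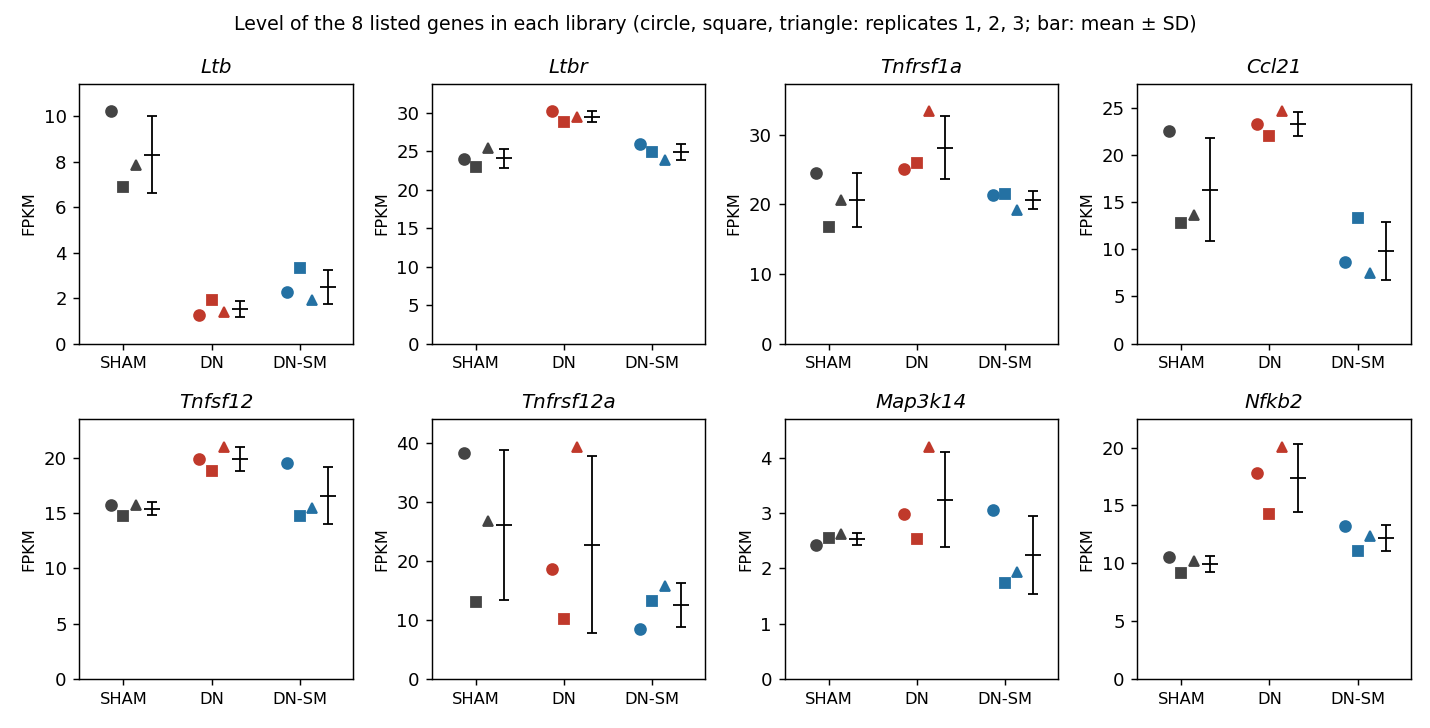
FPKM of the 8 genes (vertical axes, each starting at 0) in the 9 libraries by group (horizontal axis); symbols are replicates 1 to 3 and bars the mean ± SD. Ltb is at 6.87 to 10.21 in SHAM and at or under 3.32 in the injured groups, Nfkb2 is at 14.27 to 20.06 in DN and at or under 13.21 elsewhere, and Tnfrsf12a overlaps between all groups.

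The comparison of DN with SHAM addressed the effect of nerve injury. Leaving aside Ltb, which was chosen by this comparison, 1 of the other 7 genes passed a Benjamini-Hochberg adjusted p of 0.05 in edgeR's quasi-likelihood test, namely Nfkb2, which was higher. Of all 10129 genes tested, 4.26% passed in this comparison, 2.57% as higher and 1.70% as lower. By FPKM, 4 of the 8 genes were higher in every DN library than in any SHAM library (Ltbr, Tnfsf12, Tnfrsf1a and Nfkb2) and 1 was lower (Ltb, through its choice), beside 15.9% of all tested genes higher and 6.91% lower in that sense. The FPKM were not rescaled by the factors of the fit, and they set DN somewhat higher than the fit did. For Tnfrsf1a the ratio of mean FPKM was 1.367 and the fitted fold 1.303, and for Nfkb2 they were 1.745 and 1.656. Separations of FPKM, here and below, hold on that scale only, and narrow ones may not hold on the scale of the fit. An unadjusted p under 0.05 was reached by 2 of the 7 (Tnfrsf1a and Nfkb2), beside 22.3% of all tested genes. The median log2 fold change of the 8 was 0.28, and that of all tested genes was -0.01.

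Ltb encodes the membrane-anchoring subunit of surface lymphotoxin. It was at 10.21, 6.87 and 7.87 FPKM in SHAM replicates 1 to 3, from 96, 71 and 83 expected counts. In DN it was at 1.27, 1.91 and 1.38 FPKM, from 13, 19 and 14 counts. In DN-SM it was at 2.25, 3.32 and 1.91 FPKM, from 23, 34 and 18 counts. Every injured library thus lay below every SHAM library, with or without stimulation, while DN and DN-SM shared the value 1.91. The fitted log2 fold change was -2.51 (SE 0.267) in DN against SHAM and -1.69 (SE 0.250) in DN-SM against SHAM; both contrasts use the same SHAM libraries. In DN-SM against DN it was 0.81 (SE 0.293; edgeR adjusted p = 0.202), with the DN libraries shared with the contrast that chose the gene. With any 1 library left out the value in DN against SHAM, the comparison that chose Ltb, was between -2.71 and -2.40, as a description. The ratio of ligand to receptor FPKM, Ltb over Ltbr, was 0.299 to 0.426 in SHAM libraries, 0.0421 to 0.0664 in DN and 0.0799 to 0.133 in DN-SM. It did not overlap between groups. This ratio is a description only: Ltb was chosen as lower in DN than in SHAM, and the libraries that chose it enter each comparison. The separation therefore supports nothing.

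The partner subunit Lta was listed in 1 library only, SHAM replicate 1, at 0.09 FPKM. Tnfsf14, the ligand LIGHT that shares the receptor of lymphotoxin beta, was listed in 1 library, DN replicate 2, at 0.17. In bulk tissue, fewer cells of a type and less RNA per cell cannot be told apart. Markers of lymphocytes, the best known source of Ltb, were therefore read beside it. The T cell receptor chains Cd3e, Cd3d and Cd3g were at or under 0.64 FPKM in every library, and each was at 0 in at least 1. The B cell markers Ms4a1 and Cd79b were at or under 0.62, and Ms4a1 was at 0 in all libraries but SHAM replicate 1. Below these ceilings, and too low to be tested, Cd3e was lower in every DN library (0.23 to 0.35) than in any SHAM library (0.37 to 0.45), as was Cd79b (0 to 0.29 against 0.37 to 0.62). These values rest on 2 to 3 expected counts against 3 to 4 for Cd3e, and 0 to 3 against 4 to 6 for Cd79b. Of all tested genes 6.91% were lower in that sense. Every other T cell marker of the list, and Ms4a1, Pax5, Cd22 and Blk, overlapped between DN and SHAM. Among those, the means of Cd247, Cd8a, Lck and Pax5 were higher in DN and the rest lower. Over the whole list, 8 of 8 T cell markers had a value, summing to 12.7 to 13.8 FPKM in SHAM, 13.9 to 15.3 in DN muscle and 11.1 to 13.2 in DN-SM, mostly from Cd247 and Cd4. For 5 B cell markers (Ms4a1, Cd79b, Pax5, Cd22 and Blk) the sums were 1.11 to 1.82, 0.89 to 1.31 and 0.86 to 1.35 in the same order. The part of these cells in the Ltb values was not tested. Of 6 markers of natural killer and innate lymphoid cells, 5 had a value, with sums of 0.12 to 1.24 in SHAM, 1.27 to 1.80 in DN muscle and 0.67 to 1.71 in DN-SM. Of the 3 T cell markers that could be tested, 0 passed with edgeR in any comparison; 1 had an unadjusted p under 0.05, in DN-SM against SHAM. In SHAM, where Ltb was at 6.87 to 10.21 FPKM, each Cd3 chain was at or under 0.64, Cd247 at 4.13 to 8.38 and Cd4 at 3.27 to 6.16. With the Cd3 chains this low, the summed list, mostly Cd247 and Cd4, cannot be read as a level of T cells. Neither the cells that carried the Ltb RNA nor those that carried Cd247 and Cd4 were identified.

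**Figure D2:**
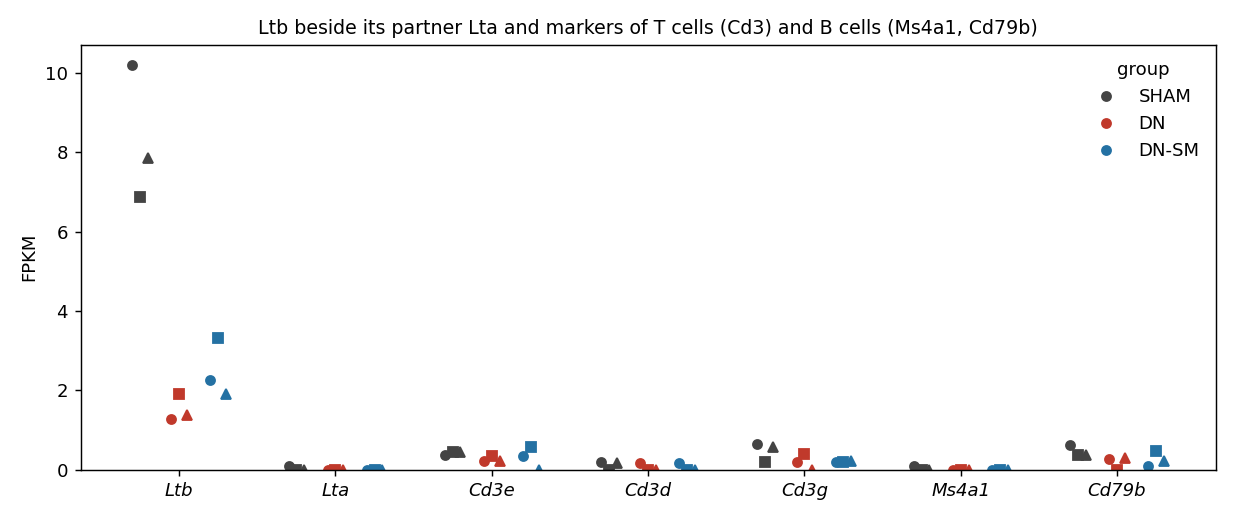
FPKM (vertical axis) of Ltb, its partner Lta and markers of T cells and B cells in the 9 libraries; colours are groups and symbols replicates 1 to 3. Ltb reaches 10.21 in SHAM, while Lta, the Cd3 chains, Ms4a1 and Cd79b, the genes plotted beside it, do not exceed 0.64. Cd247 and Cd4, which were also in the T cell list, at up to 8.38 and 6.16 in SHAM, are not plotted. Whether their RNA came from T cells was not tested.

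Ltbr, the receptor on stromal, endothelial and myeloid cells, was at 23.98, 22.95 and 25.41 FPKM in SHAM, 30.17, 28.78 and 29.5 in DN muscle, and 26.0, 24.93 and 23.9 in DN-SM. On the FPKM scale DN lay above both other groups without overlap, by a small margin. The fitted differences did not pass, at 0.21 (SE 0.113; edgeR adjusted p = 0.288) in DN against SHAM, -0.15 (adjusted p = 0.508) in DN-SM against DN, and 0.07 (adjusted p = 0.85) in DN-SM against SHAM.

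Tnfrsf1a was at 24.43, 16.71 and 20.57 FPKM in SHAM, 25.14, 25.86 and 33.33 in DN muscle, and 21.27, 21.47 and 19.13 in DN-SM. It too was higher in every DN library than in the others, with log2 fold changes of 0.38 (SE 0.125; edgeR adjusted p = 0.101) in DN against SHAM and -0.34 (SE 0.125; adjusted p = 0.203) in DN-SM against DN. Neither passed.

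Ccl21 encodes a chemokine made by lymphatic endothelium and lymphoid stroma. It was at 22.6, 12.8 and 13.6 FPKM in SHAM, 23.31, 22.01 and 24.63 in DN muscle, and 8.69, 13.34 and 7.46 in DN-SM. DN was even, SHAM replicate 1 lay with DN, and every DN-SM library lay below every DN library. The fitted log2 fold change in DN-SM against DN, the comparison that chose it, was -1.15 (SE 0.222). It was 0.46 (SE 0.214, edgeR adjusted p = 0.226) in DN against SHAM and -0.68 (SE 0.225, adjusted p = 0.203) in DN-SM against SHAM, and the groups overlapped in both. Each shares libraries with the comparison that chose Ccl21. Of 6 lymphatic endothelial markers 5 had a value, with sums of 4.39 to 8.99 FPKM in SHAM, 6.78 to 8.21 in DN muscle and 6.71 to 7.66 in DN-SM. Lyve1, a hyaluronan receptor of lymphatic vessels, was at 0.90 to 1.76 in DN muscle and 1.86 to 2.31 in DN-SM (log2 fold change 0.73, edgeR adjusted p = 0.272). The other 3 tested markers had estimates below 0, at -0.30 for Flt4 (SE 0.268), -0.21 for Pdpn (SE 0.220) and -0.31 for Reln (SE 0.408). Reln was at or under 0.16 FPKM. The median of the 4 was -0.25. With edgeR 0 of the 4 passed, and 1 (Lyve1) had an unadjusted p under 0.05. Prox1, the factor that defines lymphatic identity, was at or under 0.11 in every library. The part of these cells in the Ccl21 values was not tested.

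Tnfsf12 (TWEAK) was at 15.77, 14.78 and 15.7 FPKM in SHAM, 19.88, 18.79 and 20.99 in DN muscle, and 19.55, 14.71 and 15.48 in DN-SM. The DN values lay above SHAM without overlap, and DN-SM replicate 1 lay within DN. The log2 fold change was 0.29 (SE 0.142; edgeR adjusted p = 0.249) in DN against SHAM and -0.16 (SE 0.142; adjusted p = 0.556) in DN-SM against DN. In the current annotation Tnfsf12 overlaps the gene Eif4a1l, and Map3k14 overlaps noncoding genes; the strand setting of the counting is not given in the sources used here, so reads of such pairs may have been mixed.

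Tnfrsf12a (Fn14), the TWEAK receptor that rises in denervated mouse muscle, had the largest SD in FPKM of the 8 genes in each group. It was at 38.4, 13.01 and 26.87 FPKM in SHAM, 18.66, 10.2 and 39.41 in DN muscle, and 8.55, 13.26 and 15.8 in DN-SM. The lowest and highest values of SHAM and DN nearly coincided, and only DN-SM lacked a library above 16. The log2 fold change was -0.26 (SE 0.477; edgeR adjusted p = 0.797) in DN against SHAM, and from -0.84 without DN replicate 3 to 0.08 without DN replicate 2. It was -0.75 (SE 0.495; adjusted p = 0.452) in DN-SM against DN, moving to -0.16 without DN replicate 3. In DN-SM against SHAM it was -1.01 (SE 0.494; adjusted p = 0.447). With standard errors of this size, a difference of 2-fold in either direction was not resolved. Fibroblast marker sums ranged from 277 to 660 FPKM in SHAM, 401 to 591 in DN muscle and 282 to 405 in DN-SM. These sums came mostly from the collagen genes Col1a1 and Col3a1. The library lowest in Tnfrsf12a had the lowest sum in SHAM (replicate 2) and the highest in DN (replicate 2). The DN-SM library highest in Tnfrsf12a (replicate 3) had the lowest sum there. The part of fibroblasts in the Tnfrsf12a values was not tested.

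Map3k14 (NIK) is controlled mainly through the stability of its protein. Its RNA was at 2.42, 2.55 and 2.63 FPKM in SHAM, 2.98, 2.54 and 4.2 in DN muscle, and 3.05, 1.74 and 1.94 in DN-SM, with all groups overlapping. The log2 fold change was 0.26 (SE 0.234; edgeR adjusted p = 0.547) in DN against SHAM and -0.42 (SE 0.236; adjusted p = 0.363) in DN-SM against DN.

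Nfkb2 passed in DN against SHAM. It was at 10.51, 9.16 and 10.19 FPKM in SHAM, 17.78, 14.27 and 20.06 in DN muscle, and 13.21, 11.02 and 12.32 in DN-SM. On the FPKM scale the 3 groups were fully separate, with DN-SM between SHAM and DN. It rose by 0.73 on the log2 scale in DN against SHAM (SE 0.136; edgeR adjusted p = 0.0168; higher in 3 of 3 libraries), which is 1.66-fold. The call was lost without DN replicate 1 (0.67, adjusted p = 0.0613) and without DN replicate 3 (0.66, adjusted p = 0.0853). The differences of DN-SM from DN (-0.41, SE 0.135; adjusted p = 0.187) and from SHAM (0.32, SE 0.137; adjusted p = 0.356) did not pass.

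**Figure D3:**
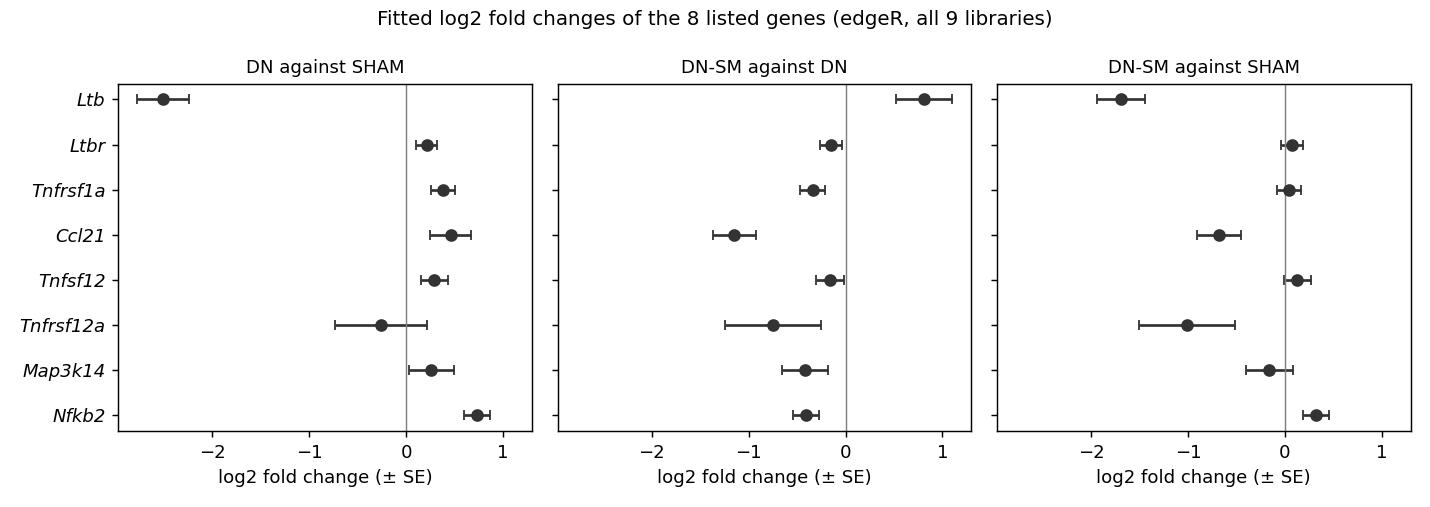
Fitted log2 fold change (horizontal axis) of each of the 8 genes with its SE (bars) in the 3 comparisons. Ltb, chosen by DN against SHAM, stands at -2.51 there with Nfkb2 at 0.73. In DN-SM against DN 7 of the 8 genes are below 0, among them Ccl21, chosen by that comparison.

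What stimulation did to injured muscle was asked by setting DN-SM against DN. Leaving aside Ccl21, which was chosen by this comparison, 0 of the other 7 genes passed in edgeR, and DESeq2 and limma on log2 FPKM called 0. An unadjusted p under 0.05 was reached by 3 (Ltb, Tnfrsf1a and Nfkb2). That of Ltb supports nothing, because the DN libraries that chose this gene enter here too. Of all genes tested, 0.00987% passed, which is 1 gene, and 17.6% had an unadjusted p under 0.05. The estimate was below 0 for 7 of the 8 genes, Ccl21 through its choice, with Ltb the exception. The median was -0.38 beside -0.01 for all genes. By FPKM, in 4 of the 8 (Ltbr, Tnfrsf1a, Nfkb2 and, through its choice, Ccl21) every DN-SM library lay below every DN library, and in 0 of the 8 above. Of all tested genes 21.3% lay below and 11.4% above, 32.7% in all. The same DN libraries enter DN against SHAM, so these values are not a separate observation of the same genes. In DN-SM against SHAM, 0 of the 7 genes other than Ltb passed in edgeR, DESeq2 or limma, beside 0.839% of all genes in edgeR, and the median of the 8 was -0.06 beside 0.02. There 1 of the 8 (Nfkb2) lay above SHAM in every library and 1 (Ltb) below, beside 7.49% and 9.34% of all tested genes. The SHAM libraries that chose Ltb enter there too. An unadjusted p under 0.05 was reached by 2 of the 7 (Ccl21 and Nfkb2), beside 12.8% of all tested genes. That of Ccl21 supports nothing, because the DN-SM libraries that chose this gene enter there.

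Across the 9 libraries the log2 levels of Nfkb2 followed those of Ltbr (Pearson r = 0.903), Tnfsf12 (0.902) and Tnfrsf1a (0.82), whereas Nfkb2 and Ltb ran opposite (-0.838). Tnfrsf12a followed its ligand Tnfsf12 hardly at all (0.044). These 28 pairwise values describe libraries that also share groups, and carry no test. Among 8785 other tested genes with a mean of at least 1 FPKM, the profiles most like that of Ltb were those of Rragd, a GTPase of lysosomal nutrient sensing (r = 0.971 over 9 libraries), Map3k4 (0.954), Ybx2 (0.95) and Scn4a, the sodium channel of muscle fibres (0.946). Scn4a was at 38.4 ± 3.17 FPKM in SHAM, 25.9 ± 0.742 in DN muscle and 25.5 ± 1.37 in DN-SM. The profiles nearest to Ccl21 were Clip2 (0.967), LOC100365289 (0.951), Mcm3ap (0.95) and Rhot2 (0.943), and those nearest to Tnfrsf12a were Ppp5c (0.942), Med20 (0.94), Daglb (0.931) and Eif4a3 (0.929). These genes are the highest of many correlations over 9 libraries. The profiles of Ltb and Ccl21 also hold the comparisons that chose them, so their likeness is a description and supports nothing. Whether any of these genes shares its cells with a member was not tested.

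Around these members, 69 other genes of the pathway were read in 6 lists, of which 61 had a value and 38 could be tested; the 23 untested ones were at or under 1.37 FPKM in every library. In DN against SHAM, 2 of the 38 rose and 1 fell (2.57% and 1.70% of all genes tested did so), with a median of 0.08 beside -0.01 for all genes. Traf2, an adaptor that holds the cIAP ligases near NIK, was at 15.31, 11.91 and 13.8 FPKM in SHAM, 21.37, 17.64 and 22.51 in DN muscle, and 15.59, 15.33 and 15.97 in DN-SM, so that DN lay above both other groups. It rose by 0.52 (SE 0.123; edgeR adjusted p = 0.039). Nfkbie, the inhibitor I-kappa-B epsilon, was at 2.27, 1.44 and 2.42 FPKM in SHAM, 4.36, 3.77 and 4.98 in DN muscle, and 2.92, 3.47 and 2.33 in DN-SM, again with DN above both; it rose by 1.02 (SE 0.243; adjusted p = 0.0378). Tab2, an adaptor that activates the kinase TAK1 in the canonical branch, fell by 1.03 (SE 0.198; adjusted p = 0.0211), from 33.4, 47.58 and 32.13 FPKM in SHAM to 23.18, 18.46 and 17.09 in DN, and stood at 31.66, 30.16 and 28.7 in DN-SM. When only the DN and SHAM libraries were fitted, 0 of the 38 passed, and also 0 without DN replicate 3; without SHAM replicate 3 there were 5, Traf2, Chuk, Tab2, Otud7b and Nfkbie. Without DN replicate 2 only Traf2 passed, without DN-SM replicate 3 Tab2 and Nfkbie, and without SHAM replicate 1 or 2, DN replicate 1, or DN-SM replicate 1 or 2 only Tab2.

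By list, the TRAF, IAP and IKK proteins had 1 of 17 higher (Traf2) and 1 lower (Tab2), with a median of 0.09. The NF-kB subunits and inhibitors had 1 of 9 higher (Nfkbie), with a median of 0.12; their most abundant genes were the inhibitors Tnip1 (33.8 ± 1.61 FPKM under sham operation and 38.6 ± 3.68 in DN; log2 fold change 0.12, edgeR adjusted p = 0.53) and Nfkbib (33.6 ± 4.80 and 31.1 ± 1.01; -0.18, adjusted p = 0.356). In the other 4 lists 0 tested genes passed. In the other noncanonical ligands and receptors, with 3 tested, Cd40, a receptor that activates NIK, was at 0.30, 0.36 and 0.36 FPKM in SHAM and 0.82, 0.94 and 1.67 in DN (1.63, SE 0.480, adjusted p = 0.0759), Csf1r, the macrophage growth factor receptor, was at -0.25 (adjusted p = 0.594), and Tnfrsf4 was at 0.46 to 1.37 FPKM and not tested. In the lymphotoxin and TNF list, with 2 tested, Tnfrsf1b, the TNF receptor TNFR2, was at 0.42 (adjusted p = 0.292) and Tnf itself was at 0.15 to 1.16 FPKM and not tested. In the lymphoid chemokine and adhesion list, with 3 tested, Cxcl12 was at -0.37 (adjusted p = 0.206) and Icam1 at -0.04 (adjusted p = 0.944). In the inflammatory target list, with 9 tested and a median of 0.25, the antioxidant enzyme Sod2 was at -0.16 (adjusted p = 0.421), Nfkbia, the inhibitor I-kappa-B alpha, at 0.28 (adjusted p = 0.845) and the adaptor Traf1 at 0.86 (adjusted p = 0.244).

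**Figure D4:**
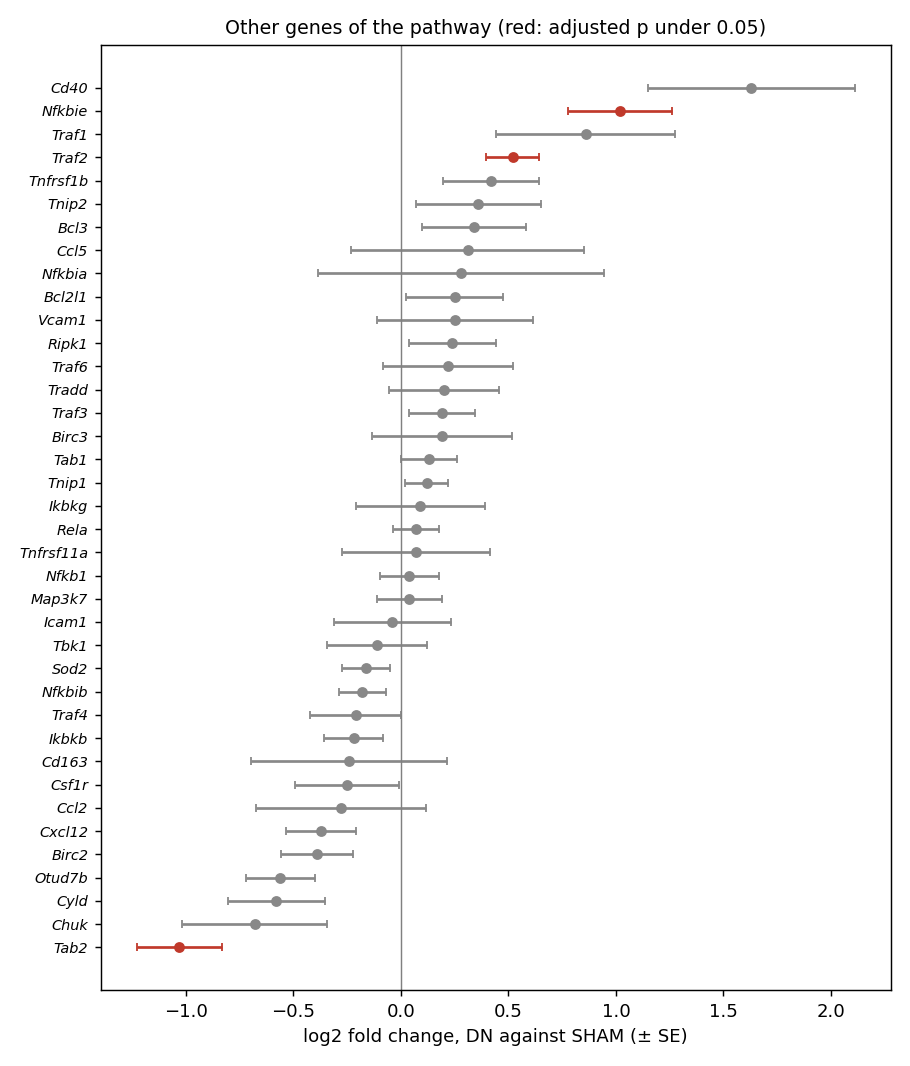
Fitted log2 fold change in DN against SHAM (horizontal axis) with its SE (bars) for the 38 tested pathway genes outside the members, ordered by value. Nfkbie at 1.02, Traf2 at 0.52 and Tab2 at -1.03 (red) passed, and the median is 0.08.

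For those 38 genes 0 passed in DN-SM against DN with edgeR, where 6 had an unadjusted p under 0.05, beside 17.6% of all tested genes. DESeq2 called 1 there, Tab2, among 189 over all genes. In DN-SM against SHAM 0 passed with edgeR and 5 had an unadjusted p under 0.05, beside 12.8% of all tested genes. DESeq2 called 0 of them there, and 259 over all genes. Some vessel and nerve markers were also higher in DN than in SHAM. The blood endothelial list (6 of 6 with a value) summed to 81.2 to 96.4 FPKM in SHAM, 117 to 153 in DN muscle and 107 to 117 in DN-SM. In DN against SHAM 2 of 6 were higher (Pecam1 and Cdh5), beside 2.57% of all tested genes. Of the others, Emcn was at 0.65 (edgeR adjusted p = 0.0697), Vwf at 0.42 (adjusted p = 0.177), Kdr at -0.09 and Tek at 0.03. Cdh5 was also higher in DN-SM than in SHAM (0.59, edgeR adjusted p = 0.0448). The Schwann cell list (6 of 6) summed to 39.2 to 44.8 FPKM in SHAM, 99.7 to 251 in DN and 55.4 to 135 in DN-SM. In DN against SHAM 2 of 6 were higher (Mbp and Ngfr), beside the same 2.57%. Macrophage sums overlapped between groups, at 41.0 to 84.0, 47.1 to 77.8 and 53.8 to 68.2 FPKM, with 0 of 8 called and 0 at an unadjusted p under 0.05. The part of these cells in the NF-kB values was not tested.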

How the data were processed

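Messenger RNA of 9 libraries was sequenced on a BGISEQ-500, per the labels. The submitters' processing notes name RSEM, HISAT2, GATK and build rn6, without versions or order. The deposited expected counts are RSEM estimates without normalization, per the file headers; the deposited FPKM values were scaled by the authors for length and depth. The transcript length in bases, deposited in the same files, was not used. A gene with no line in a library was taken as 0. RefSeq gave the symbols (13649 IDs by gene ID, 7 by accession, 96 without).

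After rounding, expected counts entered the two-sided quasi-likelihood F test of edgeR 4.0.16 (R 4.3.3; TMM factors; filterByExpr with a minimum count of 10 and total of 15; 1 fit of all libraries on group), with Benjamini-Hochberg adjustment over 10129 genes and a threshold of 0.05. SE is the log2 fold change divided by the square root of F. At these totals a change in a gene of few counts could be missed. Within groups the libraries differed beyond sampling noise (chi-square per gene of at least 7.75).

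Members and lists were chosen with earlier results of these data known. Named genes were the members, pathway genes past the threshold, the 2 most abundant of each list and the 1 with the smallest p in DN against SHAM. So were 4 genes of like profile for each of 3 members (Pearson, log2 of FPKM + 1). Marker genes, Lta, Tnfsf14, Chuk, Otud7b, Bcl2l1, Ccl2, Ccl5, Vcam1 and Birc3 were named outside that rule. A B cell marker is not reported here. Alternatives were RLE factors, no filter, DESeq2 1.42.0, fits of 2 groups, a replicate block, limma 3.58.1 on log2 FPKM (pseudocount 1 or 0.1, FPKM of 1 in 3 libraries) and each library left out.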

Additional observations from a re-analysis of the deposited data

How the results depend on the processing

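Nfkb2 was called higher in DN than in SHAM under 14 of 16 alternatives. Ltb, chosen by that comparison, had fold changes of -2.71 to -1.88 there, as a description. Counts of members below include Ltb and Ccl21, whose calls in the comparisons that chose them support nothing. Members called in DN against SHAM were 2, and 1 to 2 with a library left out; in DN-SM against SHAM 1, and 0 to 1, Ltb being lost without DN-SM replicate 1 or 3. In DN-SM against DN 0 were called, but 1 (Ccl21) by DESeq2 and 1 in the fit of these groups alone, and 0 to 1 with a library left out (Ccl21, without SHAM replicate 2 or 3); its fold change ran from -1.42 to -0.98.

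Pathway genes called in DN against SHAM were 3, but 0 in the fit of 2 groups, 1 with the replicate block (Tab2, with Traf2 and Nfkbie not called) and 0 to 5 with a library left out. In DN-SM against DN they were 0, but 1 by DESeq2, 3 in the fit of 2 groups (Chuk, Tab2 and Otud7b) and 0 to 1 with a library left out. In DN-SM against SHAM they were 0, and 0 to 1 with a library left out.

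All genes called in DN against SHAM were 432, but 752 by DESeq2, 156 in the fit of 2 groups, 275 and 243 by limma with a pseudocount of 1 and 0.1, and 58 to 1183 with a library left out. In DN-SM against DN the count was 1, but 189 by DESeq2, 716 in the fit of 2 groups, 0 by limma with a pseudocount of 0.1, and 0 to 416. In DN-SM against SHAM it was 85, but 259 by DESeq2, 28 in the fit of 2 groups, 39 with the replicate block, 42 and 43 by limma, and 15 to 137. The cause of these shifts was not tested.

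The sign of a member turned in 6 of 384 recomputed fold changes, each without a call: Tnfrsf12a in DN against SHAM (-0.84 to 0.08 with a library left out; 0.02 without SHAM replicate 1, 0.08 without DN replicate 2), and in DN-SM against SHAM Ltbr (-0.01 to 0.13; lowest without SHAM replicate 1), Tnfsf12 (-0.02 to 0.21; lowest without DN-SM replicate 1), Tnfrsf1a (-0.06 to 0.09; lowest without SHAM replicate 2) and Map3k14 (-0.46 to 0.00; highest without DN-SM replicate 2). Same-numbered libraries of different groups had residual correlations of -0.044 to 0.11, with 1 of 9 above 0.1, so the numbers were not taken as pairs; the replicate block changed no member's call.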

Other observations

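Nfkbia, an immediate target and inhibitor of NF-kB, was at 9.84, 14.28 and 64.12 FPKM in DN-SM replicates 1 to 3, at 10.94 to 16.5 in SHAM and at 14.95 to 18.55 in DN. It was singled out after its values were seen. In DN-SM replicate 3, Nfkb2 was at 12.32 FPKM, between the other libraries of its group, and Nfkbie at 2.33, the lowest of its group. Bcl2l1, an NF-kB target that restrains cell death, also singled out, was at 18.79 FPKM in that library, the highest of the 9, against 9.12 and 11.19 in the other libraries of DN-SM. Of the other tested genes of the inflammatory target list, Ccl2 at 1.49 and Ccl5 at 4.84 were highest of DN-SM there. Traf1 at 0.52, Sod2 at 118 and Vcam1 at 0.74 were lowest, and Birc3 at 1.52 and Icam1 at 1.63 lay between.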
